A study of Mus musculus with 37 samples.

Results

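The Ifit genes and a few other interferon-induced genes were followed through 18 groups of mouse myeloid cells exposed to LPS, an endotoxin of Gram-negative bacteria, to IL-10, a cytokine that restrains inflammation, or to the cytokine and then the endotoxin. The genes are Ifit1, Ifit2, Ifit3 and I830012O16Rik, a near copy of Ifit3, with Usp18, Ifi27l2a and Hsh2d. They were found by gene name in the table of transcripts and make up 7 of the 6509 named genes and 9 of the 16993 transcripts in the copy used here, which is cut off before the end of the table. They were chosen as LPS-induced genes with lower values when IL-10 was present, so the comparisons below describe them and test nothing about them. I830012O16Rik and Hsh2d have 2 transcripts each, the others 1, and a gene's value is the sum of its transcripts.

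RNA-seq was made from C57Bl6cJ mice. Peritoneal macrophages were elicited with thioglycollate and kept by adherence, neutrophils came from bone marrow of pooled mice and were held overnight in GM-CSF, splenic dendritic cells (sDCs) were enriched with beads, and mast cells and eosinophils were grown from bone marrow. The treatments were none (untreated), IL-10 alone, LPS alone, and IL-10 followed by LPS (IL-10+LPS), each agent at 100 ng/ml. Pre-treatment with IL-10 lasted 4 h and stimulation with LPS a further 4 h. Harvest times of the untreated and the LPS-alone cells are not given with these times. A difference in culture time between groups with and without LPS therefore cannot be told apart from LPS. If LPS-alone cells were not kept for the 4 h of pre-treatment, culture time also differs between LPS and IL-10+LPS. Time with IL-10 may likewise differ between IL-10 alone and IL-10+LPS. Neither difference could be told apart from the treatments compared. Eosinophils were untreated or had LPS. Replicate 1 of the untreated and the IL-10 macrophages is a re-analysis of libraries made earlier, which cannot be told apart from the treatment in that replicate. The deposited value of a group is the authors' mean of 2 replicates of normalized tag counts, so that no spread between replicates can be given and no difference was tested. In bulk samples such as these, fewer expressing cells and less RNA per cell cannot be told apart.

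IFIT proteins (interferon-induced proteins with tetratricopeptide repeats) bind foreign or unusually capped RNA and hold back its translation. Their genes are among the most inducible targets of type I interferon. In LPS-treated myeloid cells, Toll-like receptor 4 leads through the adaptor TRIF and IRF3 to interferon-beta, which acts back through its receptor, STAT2 and IRF9 on the interferon-stimulated response element (ISRE). Usp18 removes the ubiquitin-like protein ISG15 from its targets and also binds the interferon receptor and limits its signalling. Ifi27l2a belongs to the Ifi27 family of small interferon-induced membrane proteins, and Hsh2d encodes an SH2-domain adaptor of haematopoietic cells.

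The 4 Ifit genes lie near one another on the plus strand of chromosome 19. On NCBIM37 (mm9), Ifit2 spans chr19:34625200-34650909, Ifit3 chr19:34658021-34663221, I830012O16Rik chr19:34682421-34687891 and Ifit1 chr19:34715361-34724499. The coding sequences of Ifit3 and I830012O16Rik are identical at 1201 of 1212 aligned bases (99.1%), whereas the other pairs among the 4 Ifit genes share 59.2% to 66.8% of aligned bases. Usp18 is at chr6:121195924-121220934 on the plus strand, Ifi27l2a at chr12:104680377-104681890 on the minus strand and Hsh2d at chr8:74713567-74724894 on the plus strand.

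The DNA before each start site was searched for the ISRE core, because this element carries the interferon response. The core was written as GAAA, 2 bases of any kind and GAAA again (TTTC, any 2 bases and TTTC on the other strand), and the window ran from 250 bases before to 50 bases after the start of each transcript. Of the 7 genes, Ifit1, Ifit3, I830012O16Rik and Usp18 held 2 matches each, and Ifit2, Ifi27l2a and Hsh2d held 0. A match was present in 3.92% of the 15557 distinct windows of the table's transcripts. Bases -170 to -41 from the start are printed 5′ to 3′ on the strand of the gene, with the matches in capitals, for the 4 genes that have them. The NCBIM37 positions are chr19:34715191-34715320 for Ifit1, chr19:34657851-34657980 for Ifit3, chr19:34682251-34682380 for I830012O16Rik (transcript ENSMUST00000099507) and chr6:121195754-121195883 for Usp18.
Ifit1: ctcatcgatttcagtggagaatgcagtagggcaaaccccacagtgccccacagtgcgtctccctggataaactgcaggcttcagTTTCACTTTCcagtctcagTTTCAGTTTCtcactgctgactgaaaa
Ifit3: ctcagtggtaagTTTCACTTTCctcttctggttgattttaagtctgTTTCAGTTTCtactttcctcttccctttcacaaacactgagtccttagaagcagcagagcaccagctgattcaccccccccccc
I830012O16Rik: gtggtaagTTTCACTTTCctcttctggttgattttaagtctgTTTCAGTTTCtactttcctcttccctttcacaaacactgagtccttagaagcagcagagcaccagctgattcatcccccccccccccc
Usp18: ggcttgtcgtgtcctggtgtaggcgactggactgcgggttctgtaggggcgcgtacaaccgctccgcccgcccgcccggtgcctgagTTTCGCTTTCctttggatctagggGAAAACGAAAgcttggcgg

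In Ifit3 and I830012O16Rik the same 2 matches, TTTCACTTTC and TTTCAGTTTC, appear in the same order, and Ifit1 has both as well, closer together and closer to the start. The 250 bases before Ifit3 and I830012O16Rik were identical at 205 of 207 aligned bases (99.0%), so their matches are not separate occurrences. Usp18 has TTTCGCTTTC, a match on the strand opposite to the gene, and GAAAACGAAA, a match on the gene's own strand. The matches are descriptions of these windows, and the windows without a match say nothing of elements farther away. Counted by gene, 28 of 39 other interferon-induced effector genes in the table (71.8%) held the core in a window of at least 1 transcript, against 442 of 6503 genes (6.8%). An NF-kappaB core (GGGA, any 2 bases and TTCC, on both strands) was in 1.5% of all windows and a STAT (GAS) core (TTCNNNGAA, which reads the same on both strands) in 7.64%, and neither was in a window of the 7 genes.

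**Figure D1:**
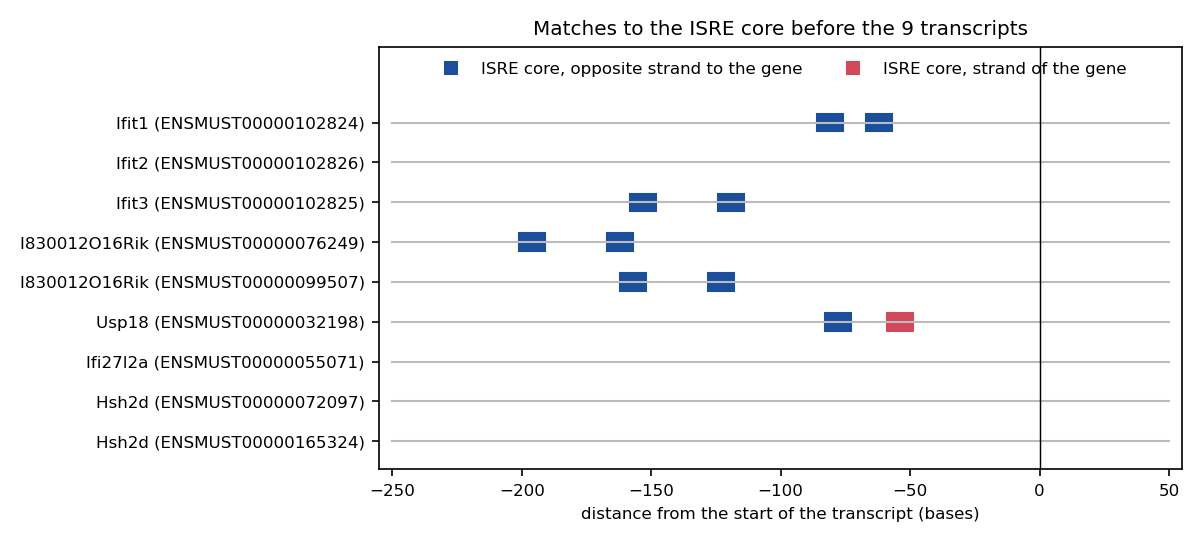
Matches to the ISRE core in the window of each of the 9 transcripts, by distance from the start in bases (blue, on the strand opposite to the gene; red, on its own strand). The 2 matches of Ifit1 and of Usp18 lie within 90 bases of the start, and those of Ifit3 and I830012O16Rik farther upstream.

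With LPS, the 4 Ifit genes had some of the largest increases of all genes, between number 2 and number 70 by size in every cell type where they reached the minimum given below. Ifit1 stood at 293 normalized tag counts in untreated macrophages and 53218 with LPS. In neutrophils it went from 21 to 8220 and in sDCs from 65 to 15299. Mast cells had far lower levels, 5 and 820, and eosinophils the lowest, 3 and 59. On the log2(value + 1) scale, used for every difference below, these increases were 7.50, 8.55, 7.86, 7.10 and 3.91. By size of increase Ifit1 was number 2 of 5734 genes in mast cells, 3 of 6050 in sDCs, 6 of 5949 in neutrophils, 12 of 6064 in macrophages and 12 of 5559 in eosinophils.

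Ifit2 had the highest value of the set, also per kilobase, 95036.5 in macrophages with LPS against 313 without, a log2 difference of 8.24. In sDCs it went from 78 to 12293.5 and in neutrophils from 140 to 2532. The values of mast cells were 13 and 282, and those of eosinophils 12 and 37. Neutrophils had more Ifit2 than sDCs before LPS and less after it, and their log2 difference was 4.17 against 7.28 in sDCs.

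Ifit3 and I830012O16Rik, the near-identical pair, changed with LPS in every cell type that expressed them. Ifit3 went from 314 to 20358 in macrophages, from 3.5 to 2463 in neutrophils and from 42 to 7228.5 in sDCs. In mast cells the values were 1.5 and 96, and in eosinophils 0.5 and 17.5. I830012O16Rik was lower throughout, also per kilobase, with macrophage values of 36.5 and 4193.5, neutrophil values of 2 and 1031.5, sDC values of 7 and 2020 and mast cell values of 0.5 and 22. The largest log2 differences of both were in neutrophils, 9.10 for Ifit3 and 8.43 for I830012O16Rik, which start from values near 0 that make the size depend on the added 1. In eosinophils I830012O16Rik was listed at 0 without LPS and at 1 with it, under the minimum of 10 that a gene had to reach in some group of a cell type to be counted there.

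Usp18 had a different order of cell types. It was highest in sDCs, at 1336 untreated and 9407 with LPS. Macrophages had 241 and 6951, neutrophils 22.5 and 5871.5, mast cells 170 and 1688, and eosinophils 37.5 and 219.5. The high starting value in sDCs goes with a log2 difference of 2.81, against 7.97 in neutrophils, where the starting value was lowest.

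Ifi27l2a did not share the increase in macrophages. Its level there was 2707.5 untreated and 1916 with LPS, a log2 difference of -0.50, and the untreated value was the highest of any cell type. Neutrophils went from 153.5 to 706 (2.19) and sDCs from 146.5 to 943 (2.68). Mast cells had 7.5 and 25.5, and eosinophils 100 and 104, a difference of 0.06.

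Hsh2d was at or near 0 in untreated macrophages (1) and mast cells (2) and reached 33 and 13 with LPS. Neutrophils went from 189.5 to 750, a log2 difference of 1.98. In sDCs and eosinophils it was already present, and changed little, from 643 to 809.5 (0.33) and from 292.5 to 355 (0.28). In macrophages with LPS all of the value came from transcript ENSMUST00000165324 (33, against 0 for ENSMUST00000072097), while in neutrophils with LPS ENSMUST00000072097 had 527 and ENSMUST00000165324 had 223.

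Counted at 2-fold, all 7 genes were higher with LPS in neutrophils (8.71% of all genes were) and in mast cells (4.76%). In macrophages 6 of 7 were higher, with Ifi27l2a the exception (12.8% of all genes), and 6 of 7 in sDCs, with Hsh2d the exception (9.04%). In eosinophils 4 of the 6 that reached the minimum were higher (2.16%). Median log2 differences of the members were 6.01, 7.97, 7.28, 3.94 and 2.03 in macrophages, neutrophils, sDCs, mast cells and eosinophils, beside medians of -0.15, -0.03, -0.14, -0.08 and -0.02 over all genes. None of the 7 was called lower, as 14.8%, 7.9%, 11.5%, 5.46% and 0.702% of all genes were.

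**Figure D2:**
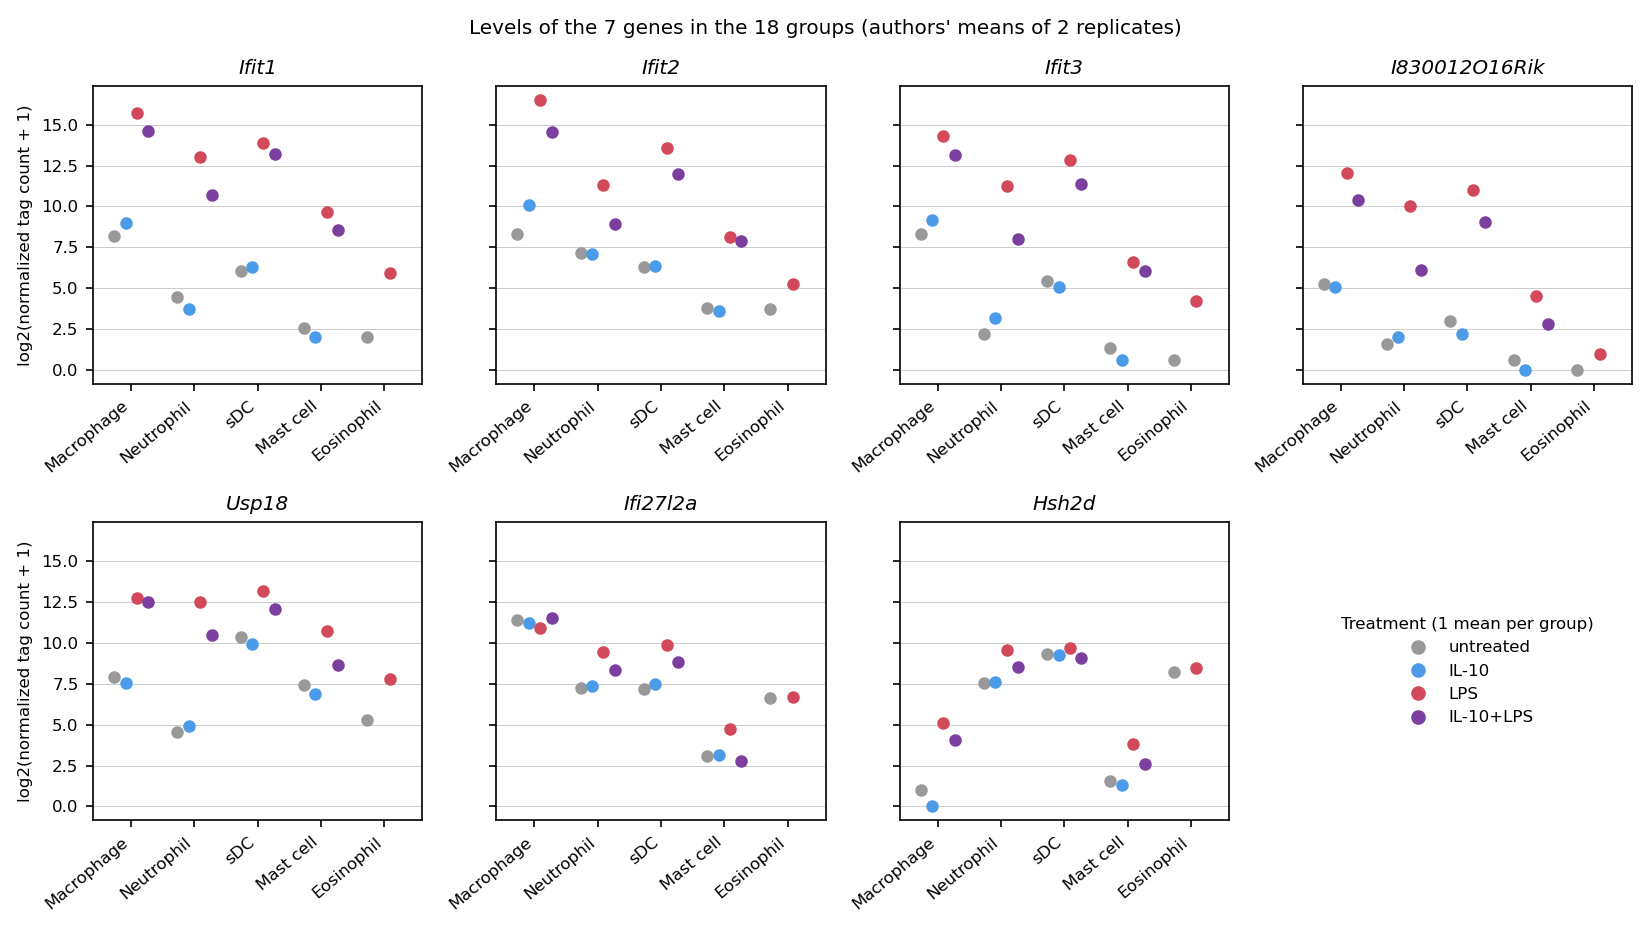
Levels of the 7 genes on a log2(normalized tag count + 1) axis, by cell type and treatment, 1 point for each group (the authors' mean of 2 replicates, so no error bars). The LPS points of the Ifit genes stand far above the untreated points in macrophages, neutrophils, sDCs and mast cells, whereas Ifi27l2a in macrophages stays between 1916 and 2909.5 in all 4 treatments.

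Compared between genes per kilobase of transcript, Ifit2 and Ifit1 were the most abundant in macrophages with LPS, at 24892 and 20037 per kb, followed by Ifit3 (11667), Ifi27l2a (4138), Usp18 (3927) and I830012O16Rik (2107), with Hsh2d last (26.7). In sDCs with LPS the leading genes were Ifit1 (5760 per kb) and Usp18 (5315), and in neutrophils Usp18 (3317) and Ifit1 (3095). Mast cells with LPS were led by Usp18 alone, at 954 per kb against 309 for Ifit1. In eosinophils with LPS Hsh2d (289 per kb) and Ifi27l2a (225) stood above Usp18 (124) and Ifit1 (22.2).

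With IL-10 alone, 1 of the 4 Ifit genes passed 2-fold in macrophages. Ifit2 was 313 untreated and 1088 with IL-10, a log2 difference of 1.79. Ifit1 went from 293 to 511.5 (0.80) and Ifit3 from 314 to 567 (0.85), both under the 2-fold call. I830012O16Rik was listed at 36.5 and 33, but the split of tags between it and Ifit3 is uncertain. Their sum went from 350.5 to 600 (0.77). Usp18 (241 and 185) and Ifi27l2a (2707.5 and 2342.5) were not higher with IL-10. Ifit2 was the 1 member called higher in macrophages, where 2.34% of all genes were.

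In the other cell types IL-10 alone made little difference to the members. In neutrophils Ifit1 was 21 and 12, Ifit2 140 and 133.5, and Usp18 22.5 and 29. Ifit3 there was called higher at 3.5 and 8, both values under 10. The background was 1.26% of genes called higher and 0.941% lower. In sDCs, with 1.6% of genes higher and 0.843% lower, and in mast cells, with 2.28% and 2.79%, no member passed 2-fold. The sDC values of Ifit1 were 65 and 79 and of Usp18 1336 and 964, and Usp18 in mast cells had 170 and 117.5. Macrophage Hsh2d, called lower at 1 and 0 (background 2.18%), was near 0 in both groups.

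The 7 genes are defined by the comparison of IL-10+LPS with LPS, and its values show how unequal their decrease was. In macrophages Ifit2 had the largest difference, from 95036.5 with LPS to 24330.5 with IL-10+LPS (log2 -1.97). I830012O16Rik went from 4193.5 to 1357.5 (-1.63), Ifit3 from 20358 to 8988 (-1.18) and Ifit1 from 53218 to 25270.5 (-1.07). Hsh2d, at 33 and 16, sat exactly on the 2-fold line. Usp18 stood apart at 6951 and 5754 (-0.27), and Ifi27l2a was higher with IL-10+LPS, 2909.5 against 1916 (0.60).

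The 4 Ifit genes had their largest decreases in neutrophils. I830012O16Rik went from 1031.5 to 67.5 (-3.91) and Ifit3 from 2463 to 254.5 (-3.27). Ifit2 (2532 and 486) and Ifit1 (8220 and 1626.5) had log2 differences of -2.38 and -2.34. Among the 518 genes that LPS raised in neutrophils, I830012O16Rik had the 4th and Ifit3 the 6th largest decrease. Usp18 went from 5871.5 to 1410 (-2.06), Ifi27l2a from 706 to 319.5 (-1.14) and Hsh2d from 750 to 369.5 (-1.02).

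In sDCs the order of the Ifit genes differed from that of their LPS levels. Ifit1, the highest of them with LPS per kilobase, changed least, from 15299 to 9261.5 (-0.72). I830012O16Rik went from 2020 to 519.5 (-1.96), Ifit2 from 12293.5 to 4114.5 (-1.58) and Ifit3 from 7228.5 to 2652.5 (-1.45). Usp18 (9407 and 4364) and Ifi27l2a (943 and 458) were just past 2-fold, at -1.11 and -1.04. Hsh2d had 809.5 and 540 (-0.58), the lower value being under the 643 of untreated sDCs.

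Mast cells showed the opposite balance between the Ifit genes and Usp18 from macrophages. Usp18 went from 1688 to 406.5 (-2.05), while Ifit2 had 282 and 237 (-0.25) and Ifit3 96 and 64 (-0.58). Ifit1 had 820 and 382 (-1.10). The remaining members were close to the minimum, with I830012O16Rik at 22 and 6 (-1.72), Ifi27l2a at 25.5 and 6 (-1.92) and Hsh2d at 13 and 5 (-1.22).

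At 2-fold, 7 of 7 genes were lower with IL-10+LPS than with LPS in neutrophils, beside 3.88% of all genes and 29.7% of those raised by LPS. In each of the other cell types 5 of 7 were lower, beside 4.62% of all and 18.1% of LPS-raised genes in macrophages, 2.08% and 12.1% in sDCs, and 4.66% and 31.1% in mast cells. None was called higher, as 3.18% of genes were in macrophages, and 3.06%, 2.61% and 2.88% in the other cell types. For macrophages, neutrophils, sDCs and mast cells the members' medians were -1.07, -2.34, -1.11 and -1.22, those of all LPS-raised genes -0.37, -0.64, -0.34 and -0.45, and those of all genes -0.01, 0.00, 0.04 and -0.03. These counts follow from how the genes were chosen.

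**Figure D3:**
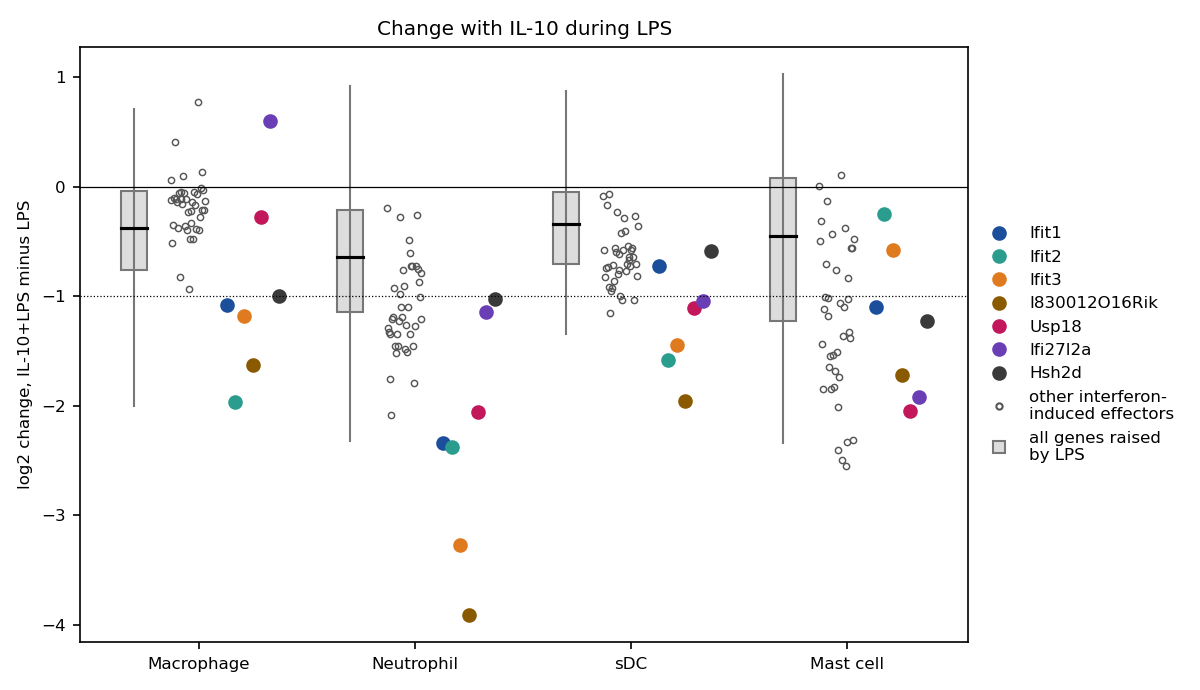
Log2 change from LPS to IL-10+LPS in 4 cell types for the 7 genes (filled points), 39 other interferon-induced effector genes in the table (open circles) and all genes raised by LPS (box from the 25th to the 75th percentile with the median, line from the 5th to the 95th percentile). The dotted line marks 2-fold lower. In macrophages the Ifit genes, which were chosen for such a decrease, lie below every open circle. In mast cells the open circles reach to -2.55, lower than any member.

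The share of the LPS increase that was left with IL-10+LPS gives the same data on a linear scale. In neutrophils it ran from 6.36% for I830012O16Rik through 10.2% for Ifit3, 14.5% for Ifit2 and 19.6% for Ifit1 to 32.1% for Hsh2d. In macrophages it was lowest for Ifit2 (25.4%) and highest for Usp18 (82.2%), whereas in mast cells 83.3% was left for Ifit2, the highest, and 15.6% for Usp18, with only Ifi27l2a lower (-8.33%, at values of 25.5 and under). The sDC values ran from 25.5% for I830012O16Rik to 60.4% for Ifit1. A share under 50% was found for 7 of 7 LPS-raised members in neutrophils (51.7% of all LPS-raised genes), 5 of 7 in mast cells (44.3%), and 5 of 6 in macrophages (32.6%) and in sDCs (27.6%).

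Even so, IL-10+LPS cells stayed far above untreated cells for most Ifit values. As ratios of (value + 1), Ifit1 was 140-fold above untreated in sDCs, 86.0-fold in macrophages, 74.0-fold in neutrophils and 63.8-fold in mast cells. Ifit2 in neutrophils was 3.45-fold above, against 77.5-fold in macrophages. Ifi27l2a in mast cells came back to 6, beside 7.5 in untreated cells.

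The IL-10 difference with LPS can be set against that without LPS. Time with IL-10 may not be equal in both settings, which cannot be told apart from LPS here. With LPS minus without LPS, the macrophage values differed by -3.76 for Ifit2, -2.03 for Ifit3 and -1.88 for Ifit1, each from above 0 to below it. In neutrophils I830012O16Rik (0.42 and -3.91) and Ifit3 (1.00 and -3.27) differed by -4.33 and -4.27, from values of 8 or less without LPS. For Usp18 in macrophages this value was 0.11, since it was slightly lower with IL-10 in both settings.

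Because Ifit3 and I830012O16Rik are nearly identical, the split of tags between them is uncertain, and they were also taken as a pair. In macrophages the pair went from 24551.5 with LPS to 10345.5 with IL-10+LPS (-1.25), and I830012O16Rik took 17.1% and 13.1% of it. Neutrophils had 3494.5 and 322 (-3.44), with shares of 29.5% and 21.0%. The sDC sums were 9248.5 and 3172 (-1.54), with shares of 21.8% and 16.4%, and those of mast cells 118 and 70 (-0.75), with 18.6% and 8.57%. The share of I830012O16Rik was lower with IL-10+LPS in all 4 cell types. The mast cell pair is not 2-fold lower, although I830012O16Rik alone is.

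The rest of the interferon pathway was read from lists of genes. Genes missing from these lists may lie past the point where the copy is cut off, so that their absence says nothing of their expression. Of 21 interferon ligands, 0 were in the copy and none was analysed here. Of 12 receptor and relay genes 8 were, and the transcription factor gene Stat2 was at least 2-fold higher with LPS in macrophages (2.87), sDCs (2.10), neutrophils (2.47) and mast cells (1.26). With IL-10 alone Stat2 was 2770 against 1348.5 in macrophages (1.04) and 1447 against 1135 in neutrophils (0.35). With IL-10+LPS against LPS, Stat2 was called lower in neutrophils, from 6294 to 2509 (-1.33), and had -0.54 in sDCs and -0.85 in mast cells. None of the 8 genes was called lower in macrophages or sDCs, where 4.62% and 2.08% of all genes were. A count of 0 among so few genes is near those shares.

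Of 8 interferon regulatory factors 4 were present. Irf1, itself induced by interferon, was higher with LPS in macrophages (3.58), sDCs (1.38) and mast cells (1.34), and with IL-10 alone in macrophages (2.03) and neutrophils (1.09). Of the 4, only Irf5 in neutrophils (-1.17) was called lower with IL-10+LPS than with LPS, beside 3.88% of all genes there. Of 19 sensors and adaptors that act before interferon, 10 were present. With IL-10+LPS against LPS, 4 of 10 were lower in neutrophils (3.88% of all genes) and 3 of 9 in mast cells (4.66%). The counts were 2 of 10 in sDCs (2.08%) and 1 of 10 in macrophages (4.62%). The endosomal DNA sensor Tlr9 was among them in macrophages (-1.05), neutrophils (-1.89) and sDCs (-1.13), and the cytosolic RNA sensor Ddx58 in mast cells (-1.90).

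The effector list, 39 of whose 78 genes were present (the sensor Ifih1 is on both lists), was used for comparison. It holds other interferon-induced genes but is not a matched set. With IL-10 alone in macrophages, 10 of its 39 genes were at least 2-fold higher, against 1 of the 7 members. With LPS 37 of 39 were higher in macrophages (12.8% of all genes), 36 in sDCs (9.04%) and 35 in neutrophils (8.71%). In mast cells 30 were (4.76%), and in eosinophils 13 of 36 (2.16%). With IL-10+LPS against LPS, 0 of 39 were 2-fold lower in macrophages, beside 4.62% of all genes and 18.1% of LPS-raised genes. The effector median there was -0.14, and the largest decrease was that of Oasl1 (28802.5 to 15117, -0.93). Tgtp2, an interferon-induced GTPase, had 7148.5 with LPS and 12245 with IL-10+LPS there (0.78). The median share of the LPS increase left was 85.1% for the LPS-raised effectors in macrophages and 45.1% for the members. The members were chosen for lower values with IL-10 during LPS. That choice by itself favours a smaller share for them, here and in the other cell types.

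The effectors moved more in the other cell types. In neutrophils 24 of 39 were lower (median -1.19), led by the guanylate-binding protein gene Gbp2 (2595 to 610, -2.09). In mast cells 26 of 39 were (median -1.18), led by Tgtp1 (136.5 to 22.5, -2.55). The shares of all genes were 3.88% in neutrophils and 4.66% in mast cells, and of LPS-raised genes 29.7% and 31.1%. In sDCs 3 of 39 were lower, Ifi44, Trim30d and Oasl2, with differences between -1.15 and -1.03. Of all genes 2.08% were lower there, and of LPS-raised genes 12.1%. The median share left in neutrophils was 33.8% for effectors and 19.6% for the members, in sDCs 56.6% and 36.9%, and in mast cells 14.2% and 27.3%. By these medians, mast cells were the cell type in which the members kept more of the LPS increase than the effector list did. The member median there is the share of Hsh2d, at 2 untreated, 13 with LPS and 5 with IL-10+LPS. It rests on values close to the minimum, as do the shares of I830012O16Rik and Ifi27l2a.

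Effectors were at least 2-fold higher with IL-10 alone than untreated for 11 of 39 in neutrophils (1 was lower) and 10 in macrophages (0 lower). In sDCs 5 were higher (0 lower) and in mast cells 1 (1 lower). In the same order of cell types, 1.26%, 2.34%, 1.6% and 2.28% of all genes were higher. The shares lower were 0.941%, 2.18%, 0.843% and 2.79%. GTPase genes led in macrophages, Tgtp2 from 160.5 to 3403.5 (4.40) and Gbp5 from 77 to 841 (3.43), and in neutrophils Gbp2 from 78 to 1484 (4.23). Gbp2 in neutrophils was therefore higher with IL-10 alone and lower when IL-10 came before LPS, as Ifit2 was in macrophages.

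Of 2 other genes of these families in the table, the Ifit family gene 2010002M12Rik went from 7 to 713 with LPS in macrophages, 333 to 1002 in neutrophils and 24 to 388 in sDCs. Its IL-10+LPS values were lower by a log2 difference of -0.55, -2.95 and -1.81. Ifi27l1, the relative of Ifi27l2a, passed 2-fold in none of these comparisons. Among negative regulators other than Usp18, 5 of 11 listed genes were in the table. With IL-10+LPS, 1 was called lower in macrophages (Cish, -1.22; 4.62% of all genes) and 1 in mast cells (Socs2, -2.04; 4.66%). In neutrophils (3.88%) and sDCs (2.08%) 0 were lower, and Ptpn1 was higher (1.32) in sDCs. Among 6 of 15 known IL-10 response genes, Sbno2, a corepressor induced by IL-10, was higher with IL-10 alone in mast cells (1.40), with 0.98 in macrophages, 0.21 in sDCs and 0.79 in neutrophils.

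By the measure used, the pattern most like the mean of the 7 genes was that of Parp14, an interferon-induced ADP-ribosyltransferase, with a Pearson correlation of 0.978 over the 18 group means after each cell type's mean was removed. The next were Arl8a (0.976), Mafg (0.972), Ptx3 (0.970), Ifih1 (0.968), Ddx58 (0.967), Oas1b (0.966), Ogfr (0.963), Xaf1 (0.963) and Ptpn11 (0.962), among 6241 genes. The 18 values share libraries and normalization, and LPS sets most of the variation. Without centring, Ifih1 came first and Parp14 was number 2, with Arl8a at number 704 and Mafg at 1270, and by Spearman correlation Parp14 was also number 2. Likeness in shape is not likeness in size, as Arl8a went only from 3624.5 to 4823.5 with LPS in macrophages. Between members the correlation ran from 0.988 for Ifit1 and Ifit3 to 0.318 for Ifi27l2a and Hsh2d.

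The cell types were checked against marker lists, parts of which the table holds. The summed level of each list was highest in its own cell type, for example 277675 to 325478 for the 3 mast cell markers present in mast cells against at most 8800 elsewhere, but not every marker was. The integrin gene Itgax was 13861 in untreated macrophages and 4075.5 in untreated sDCs, the sDC sum being mostly Ccr7. Emr1 was 22514.5 in eosinophils and 16808 in macrophages with LPS, and Ly6g was 188.5 in untreated eosinophils and 161.5 in untreated neutrophils. Neutrophil libraries also held the 2 eosinophil markers present at 19648 to 23628 in sum, with Epx at 19128.5 untreated and 18734 with LPS, and sDC libraries held neutrophil granule genes, with Mpo at 4890 untreated and 714 with LPS. The 7 neutrophil markers present summed to 309239 in untreated neutrophils, 68132.5 with LPS and 106927 with IL-10+LPS, with Cxcr2 at 52728, 3210 and 19833. The 4 macrophage markers present summed to 7588.5 in untreated neutrophils, 17932.5 with LPS and 10158 with IL-10+LPS. That course up and down, like that of the members, came from Emr1 alone (4346, 14667.5 and 5157.5). In the same order, Cd68 was highest with IL-10+LPS (2788, 3140 and 4387.5) and Mrc1 lowest with LPS (454.5, 124.5 and 613). Timd4 was at or near 0. The part of these shifts in the values of the Ifit genes was not tested. The 4 plasmacytoid dendritic cell markers present summed to 5336.5 in untreated sDCs, 10822 with LPS and 9389 with IL-10+LPS, but include Bst2, which interferon induces itself.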

How the data were processed

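The authors aligned RNA-seq tags with Bowtie 0.12.9 and counted them per transcript by RSEM 1.2.1 (versions per the labels' processing notes) against Ensembl transcripts of mm9, and normalized for GC content with EDASeq. Each deposited value, a score, is the mean of 2 replicates, and all 18 columns share the maximum of 185338. Of 37 samples, 36 stand behind the table and 1 was not used here. The copy used held 17015 complete lines and 1 broken line. After 22 lines without a gene name (0.129%) were left out, 16993 transcripts of 6509 genes remained, a part of the transcriptome, and each reached at least 13 in some group. Depth per library cannot be read from normalized means, so counting intervals and limits for a value of 0 are not given.

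Transcripts were summed per gene with pandas 2.3.3 and numpy 2.4.6 in Python 3.11.15. Differences were taken on log2(value + 1), which understates changes of low genes. A gene was kept in a cell type if a group there reached 10, and called at 2-fold. No difference between groups was tested, and only the arithmetic of the calls was checked on simulated tables. Promoter windows were read from NCBIM37 at the starts that GENCODE vM1 gives for 16791 of the transcripts, and coding sequences were aligned with Biopython 1.88. Figures were drawn with matplotlib 3.10.9. The members and gene lists were chosen with earlier results of these data known. All 7 members are named, and from each list up to 4 genes with the largest absolute change, and the 10 genes most alike are named. Marker genes and the pair of Ifit3 and I830012O16Rik are further exceptions, and the values of the pair, the isoforms and the shares left were chosen after the data were seen. Results for 1 gene of the relay list are not reported here.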

Additional observations from a re-analysis of the deposited data

Results flagged for a closer look

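Ifi27l2a differed in direction between cell types in the comparison of IL-10+LPS with LPS. Its log2 difference was 0.60 in macrophages (1916 to 2909.5) and -1.04 in sDCs, -1.14 in neutrophils and -1.92 in mast cells. Ifit1 differed in direction with IL-10 alone, with 0.80 in macrophages (293 to 511.5) and -0.76 in neutrophils (21 to 12). Both were picked out because they moved by at least 1.5-fold in opposite directions, and with 1 mean per group the differences were not tested. No group had 4 or more samples with values of their own, so that outlying samples could not be looked for.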

How the results depend on the processing

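The choices varied were the pseudocount, the minimum, the fold that counts as a call, centring on the median of all genes and taking each gene by its most abundant transcript. Of 610 recomputed log2 changes of the members, 590 stayed on their side of the call and 0 turned direction. The counts for IL-10+LPS against LPS stayed within 1.5 times under every choice except the minimum of 50, which left 4 members to count in mast cells, 2 of them lower. That minimum also left 4 members higher with LPS in mast cells and 2 in eosinophils. With IL-10 alone, counts were small and moved most. At a 1.5-fold call, 3 members were higher in macrophages, and 3 in mast cells, 1 in sDCs and 1 in neutrophils were lower. A pseudocount of 10 gave 0 lower in macrophages and 0 higher in neutrophils, and a pseudocount of 0.1 gave 2 lower in mast cells. The macrophage call of 1 lower, Hsh2d, went to 0 under the minimum of 50, with centring and by the most abundant transcript, and the last of these gave 1 lower in sDCs. Macrophage Hsh2d, which lies on the 2-fold line between LPS and IL-10+LPS, missed it with a pseudocount of 10 (-0.73) and with centring (-0.99).

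With the pair of Ifit3 and I830012O16Rik as 1 sum, chosen after seeing the data, the mast cell value between LPS and IL-10+LPS was -0.75, under the call that I830012O16Rik alone had passed, and the neutrophil value with IL-10 alone was 0.88, under the call of Ifit3. Of the 10 genes most alike, 3 were among the 10 without centring and 4 by Spearman correlation. No paired analysis was possible because the table holds 1 mean per group, and leaving out a replicate was likewise not run. Values under 10, as in untreated mast cells, limit what can be said of sizes there.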
